A study of Homo sapiens with 3 samples.

Results

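Genes for proteins of the mitochondrial ribosome were followed in the human cell line Kelly, which derives from a neuroblastoma, carries many copies of MYCN and has an activating mutation in ALK. The genes were chosen by name alone: every row of the deposited gene table whose symbol was MRPL or MRPS followed by a number, with an optional letter A, B or C. This gave 78 of 32738 gene rows, with 76 distinct names, since MRPL30 and MRPS17 each stand on 2 rows. A member was called measured at a CPM (UMIs of the gene per 1000000 UMIs) of 5 or more in the cells of any library, which held for 74 rows, 45 with an L name (large subunit) and 29 with an S name (small subunit). A UMI is a tag that marks 1 captured RNA molecule.

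The study set out 3 states of response to TAE684, an inhibitor of the ALK kinase, and each state is 1 library of single cells. Sensitive cells were kept in DMSO, the drug's solvent. Intermediate resistant cells were grown with TAE684 at 500 nM, and fully resistant cells with TAE684 at 1 µM. All cells share the one line and its medium. With 1 library per group there was no replicate and no test, so resistance, drug dose and differences between single cultures cannot be told apart. Differences are therefore given by size, with intervals that cover counting error only, and a member was called higher or lower where its levels differed 1.5-fold or more.

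Mitochondria keep their own ribosome, which translates only the messages encoded in mitochondrial DNA, all of them for subunits of the respiratory chain and ATP synthase. Its rRNAs come from mitochondrial DNA, while every one of its proteins is encoded in the nucleus, made in the cytosol and imported. Some of these proteins descend from bacterial ribosomal proteins, and others were added later in the mitochondrial lineage. Neuroblastoma with high MYCN is known for high ribosome production and mitochondrial activity.

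The 3 libraries held 5415, 6288 and 6331 cells in the order sensitive, intermediate resistant and fully resistant, with 95119772, 102449567 and 106163582 UMIs in those cells and medians between 15660.5 and 16014 UMIs per cell. Between 38 and 62 cell barcodes were shared by a pair of libraries, where the product of the cell numbers over all barcodes is between 46.2 and 54.0, and 0 were shared by all 3. Noradrenergic neuroblastoma markers were present throughout (HAND2 at 370, 417 and 283 CPM, GATA3 at 275, 435 and 111 CPM), and markers of other cell types were low. PDGFRB (fibroblasts) stood at 17.4, 11.48 and 10.2 CPM, KRT19 (epithelia) at 6.73, 11.4 and 0.518 CPM, COL1A1 (fibroblasts) at 2.04, 3.05 and 5.36 CPM, CD68 (macrophages) at 2.23, 1.19 and 1.41 CPM and LUM (fibroblasts) at 0.2, 0.234 and 1.49 CPM. EPCAM, PTPRC, LYZ, VWF, CDH5, COL1A2 and DCN stayed under 1 CPM, and CD3E, KRT5 and CDH1 had 0 UMIs in all 3 libraries, which allows 3 UMIs per library. The share of UMIs from mitochondrially encoded messages was 5.57%, 5.13% and 6.57%, and that from cytosolic ribosomal protein genes 36.6%, 39.4% and 33.5%. Both shares enter the total that CPM is divided by. Scalings that change this total are given beside the results they change.

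The promoters of these genes were read from RefSeq (build GRCh38.p14), 250 bases before to 50 bases after the start of each gene, to see what the members share beyond their name. Of the 74 measured names, 65 had a promoter in the table. These words were searched on both strands. CCGGAAG is the core bound by ETS-family factors such as GABP, and AAGATGGCG is bound by YY1. GCATGCGC is part of the site of NRF1, a regulator of nuclear genes for mitochondria. CACGTG is the E-box bound by MYC and MYCN among others. No match of one word overlapped a match of another in these promoters. The ETS word stood in 26 of 65 members' promoters (40.0%), against 21.2% of the 7484 promoters of measured genes and 10.7% of all 27305 promoters. The YY1 word stood in 12 members' promoters (18.5%), against 4.66% and 1.85%. The NRF1 word stood in 6 (9.23%), against 6.35% and 3.27%, and the E-box likewise in 6 (9.23%), against 10.98% and 7.44%. Of the 35 ETS matches, 27 began within the 60 bases before the start or after it, and 9 of the 13 YY1 matches lay after the start. At least 1 of the ETS, YY1 and NRF1 words stood in 36 members' promoters (55.4%), against 29.2% of measured genes' promoters. Related genes held the same words. Of 51 promoters of nuclear respiratory chain genes, 29.4% held the ETS word, 13.7% the YY1 word, 17.65% the NRF1 word (above the members' share) and 47.1% any of these. Of 67 promoters of cytosolic ribosomal protein genes the shares were 32.8%, 7.46%, 4.48% and 41.8%. The words are thus shared with these genes, and whether the lists differ was not tested. The median GC content was 60.3% for the members' promoters, 65.7% for those of measured genes and 58.3% for all promoters, and its part in these shares was not tested. A word match is a description of the sequence and does not show that a factor binds.

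The 120 bases just before the start are printed 5′ to 3′ on the gene's strand, for the member with the highest level (MRPL51) and for 4 members whose levels differed most between libraries. Capitals mark the words. MRPL51 (chr12:6493263-6493382, minus strand) carries the ETS word on both strands. MRPL17 (chr11:6683341-6683460, minus strand) carries 3 NRF1 words, the first pair overlapping on opposite strands. MRPL36 (chr5:1799838-1799957, minus strand) carries an E-box followed by the YY1 word in reverse. MRPS24 (chr7:43869518-43869637, minus strand) and MRPS6 (chr21:34073458-34073577, plus strand) hold none of the words in this stretch. MRPS24 has the YY1 word after its start.
MRPL51: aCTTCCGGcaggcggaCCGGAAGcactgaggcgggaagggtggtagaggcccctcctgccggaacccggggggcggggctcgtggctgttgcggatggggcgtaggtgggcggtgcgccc
MRPL17: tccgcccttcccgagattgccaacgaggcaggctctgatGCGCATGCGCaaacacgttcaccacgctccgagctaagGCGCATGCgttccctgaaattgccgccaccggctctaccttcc
MRPL36: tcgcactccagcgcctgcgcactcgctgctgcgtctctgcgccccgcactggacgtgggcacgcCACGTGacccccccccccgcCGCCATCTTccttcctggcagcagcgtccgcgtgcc
MRPS24: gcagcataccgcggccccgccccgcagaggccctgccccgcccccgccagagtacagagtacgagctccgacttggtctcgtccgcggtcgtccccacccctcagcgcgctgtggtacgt
MRPS6: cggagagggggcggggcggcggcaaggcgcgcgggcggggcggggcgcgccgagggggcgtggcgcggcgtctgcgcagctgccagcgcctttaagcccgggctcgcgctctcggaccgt

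The order of the members' levels was much the same in every library. MRPL51, a large-subunit protein without a bacterial homolog, was highest at 722, 757 and 864 CPM in the order sensitive, intermediate resistant, fully resistant, which is the order used for all values that follow. MRPL41, also without a bacterial homolog, followed at 414, 511 and 568 CPM. MRPL14 (344, 356 and 375 CPM), MRPL33 (288, 376 and 271 CPM), MRPS21 (294, 266 and 338 CPM) and MRPS7 (247, 301 and 322 CPM), all with bacterial homologs, made up the rest of the 6 highest by mean. MRPL14 was lowest in the sensitive and highest in the fully resistant library, while MRPL33 stood highest in the intermediate resistant library. These are tagged molecules near the 3′ end and were not divided by gene length. Spearman's rho of the 74 levels was 0.973 between sensitive and intermediate resistant, 0.957 between sensitive and fully resistant and 0.969 between the resistant libraries, over genes that share libraries and depth.

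The lowest measured members were MRPL53 at 5.40, 8.32 and 9.22 CPM, MRPL39 at 10.3, 12.8 and 10.8 CPM and MRPS9 at 13.3, 13.7 and 15.7 CPM. MRPL53 alone among the measured members stayed under 10 CPM in every library. Outside the limit of 5 CPM stood 4 rows: MRPL38, at most 3.16 CPM; both MRPL30 rows, at most 0.158 and 0.0848 CPM; and the second MRPS17 row (ENSG00000249773), at most 0.0976 CPM. All 78 rows had at least 1 UMI in each library. The MRPL30 rows, the second MRPS17 row and 14 further member rows overlap another gene of the table on their own strand in GENCODE 29, and reads of such pairs may be split or lost in counting. The identifiers of MRPS21 and MRPL45 are not in GENCODE 29, so overlaps of these members could not be read. A further limit is that 33 member names have pseudogenes named after them. What either did to a level was not tested.

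**Figure D1:**
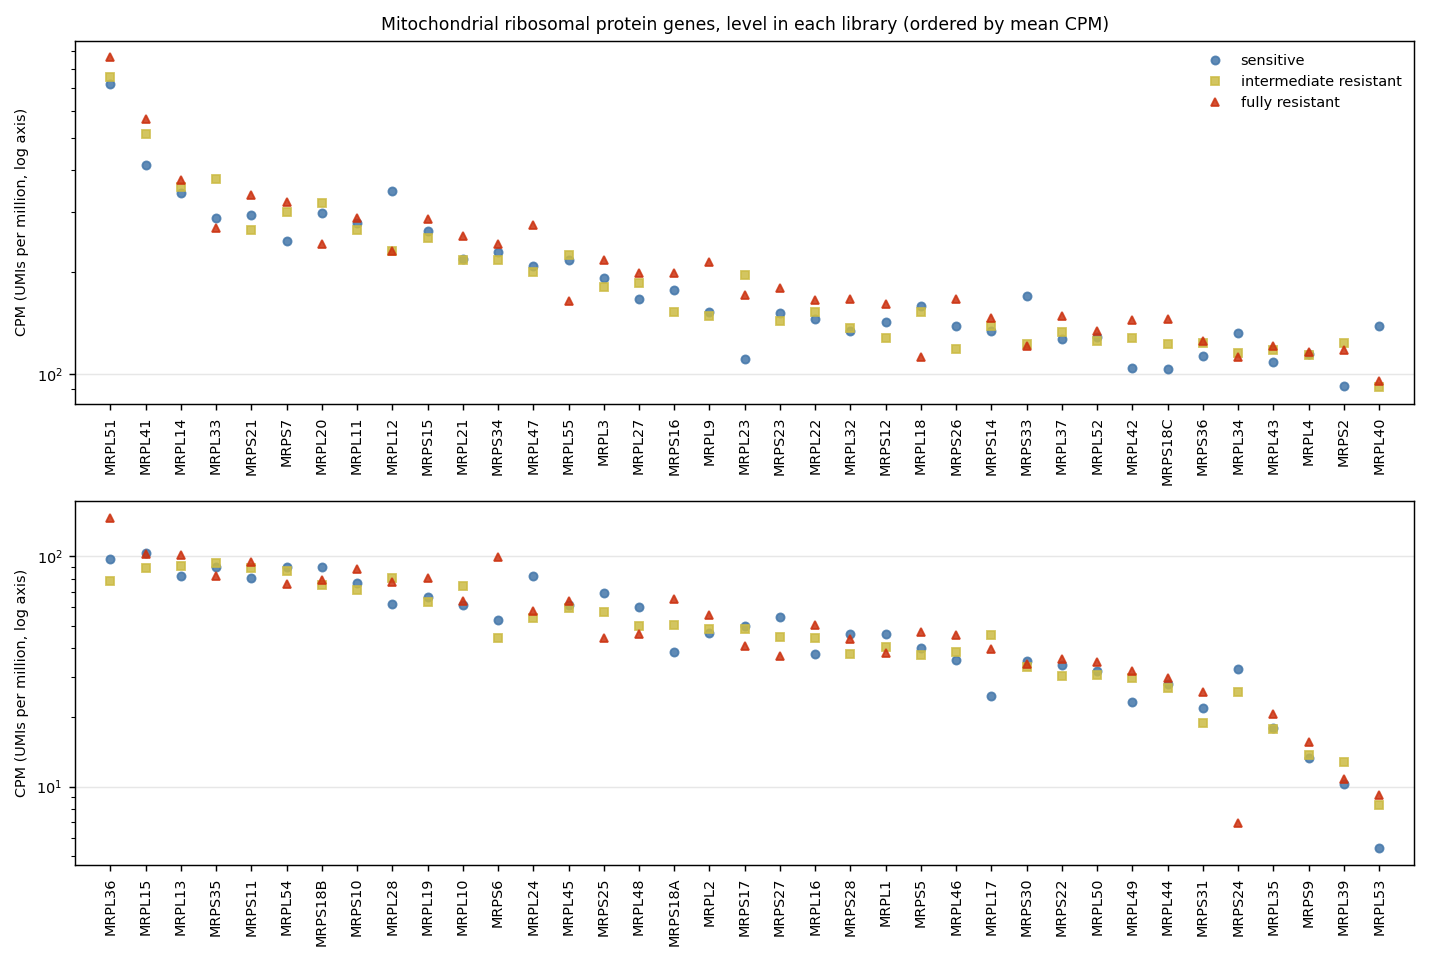
Level of each of the 74 measured members (CPM, log axis) in the sensitive (circles), intermediate resistant (squares) and fully resistant (triangles) library, ordered by mean from left to right and from top to bottom. Most members have their 3 points close together; MRPS24 stands out with 32.4, 25.8 and 6.95 CPM, and MRPS6 with 52.7, 44.2 and 99.1 CPM.

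Between intermediate resistant and sensitive cells the mitochondrial ribosomal protein genes stood at nearly the same level. MRPL17, MRPL23 and MRPL53 were higher in intermediate resistant cells, and MRPL40 and MRPL24 were lower. The other 69 members lay within 1.5-fold, and 61 of 74 within 1.25-fold. Higher calls were thus 3 of 74, where 6.66% of all 9930 genes compared were higher, and lower calls 2 of 74, where 12.2% were lower. Together these are 5 of 74 members, beside 18.9% of genes. The median log2 ratio was −0.04 for the members and −0.07 for all genes, and the quartiles of the members spanned 0.28 against 0.47 for all genes. The summed level was 1.009-fold that of sensitive cells (95% counting interval 1.006 to 1.011). TMM scaling put the members' median at 0.01, and the reduced total (without mitochondrially encoded and cytosolic ribosomal protein genes) put it at 0.02, so its sign depends on the scaling.

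Between fully resistant and sensitive cells 6 members were higher: MRPS6, MRPS18A, MRPL53, MRPL17, MRPL23 and MRPL36. MRPS24 and MRPS25 were lower. The background for higher was 15.1% and for lower 14.9% of 9933 genes, 30.0% in either direction, beside 8 of 74 members. The members' median log2 ratio was 0.17, beside 0.08 for all genes, and 53 of 74 members lay above 0, as did 5644 of 9933 genes. Their summed share of all UMIs was 0.9401%, 0.948% and 1.02% over the 3 libraries, and the fully resistant sum was 1.09-fold that of sensitive cells (95% counting interval 1.08 to 1.09). With TMM scaling, which set the median of all genes to −0.02, the split was 3 higher and 8 lower, with the median of ratios 4 and 5, and with the reduced total likewise 4 and 5. Of all genes, 12.2% were higher and 17.45% lower with TMM, 12.9% and 16.8% with the median of ratios, and 14.1% and 17.4% with the reduced total. The members' median stayed 0.09 above that of all genes in each of these scalings.

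Between the resistant libraries, MRPS6 and MRPL36 were higher in fully resistant cells and MRPS24 was lower. The background was 13.7% higher and 8.89% lower of 9933 genes, 22.6% in either direction, beside 3 of 74 members. The members' median was 0.11 and that of all genes 0.14, but TMM scaling put the members at −0.03 and all genes at −0.00, and the reduced total put the members at −0.0023 and all genes at 0.03, so the members' direction depends on the scaling. Relative to all genes the members lay 0.03 lower with each of these. Both comparisons with sensitive cells share that library, and both comparisons with fully resistant cells share theirs.

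Over the 3 comparisons 64 of 74 members stayed within 1.5-fold throughout, beside 6044 of 9933 genes. Higher in both resistant libraries than in sensitive cells were 3 members, MRPL17, MRPL23 and MRPL53, and lower in both were 0 members, beside 473 and 691 genes. The fully resistant library held the highest of the 3 levels for 47 members (63.5%, beside 49.2% of all genes), the sensitive library for 17 (23.0%, beside 35.0%) and the intermediate resistant library for 10 (13.5%, beside 15.8%). With TMM scaling these counts were 31, 21 and 22 members, and the share for the fully resistant library was 41.9%, beside 35.8% of all genes. MRPL4, a large-subunit protein with a bacterial homolog, varied least at 114, 114 and 116 CPM.

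**Figure D2:**
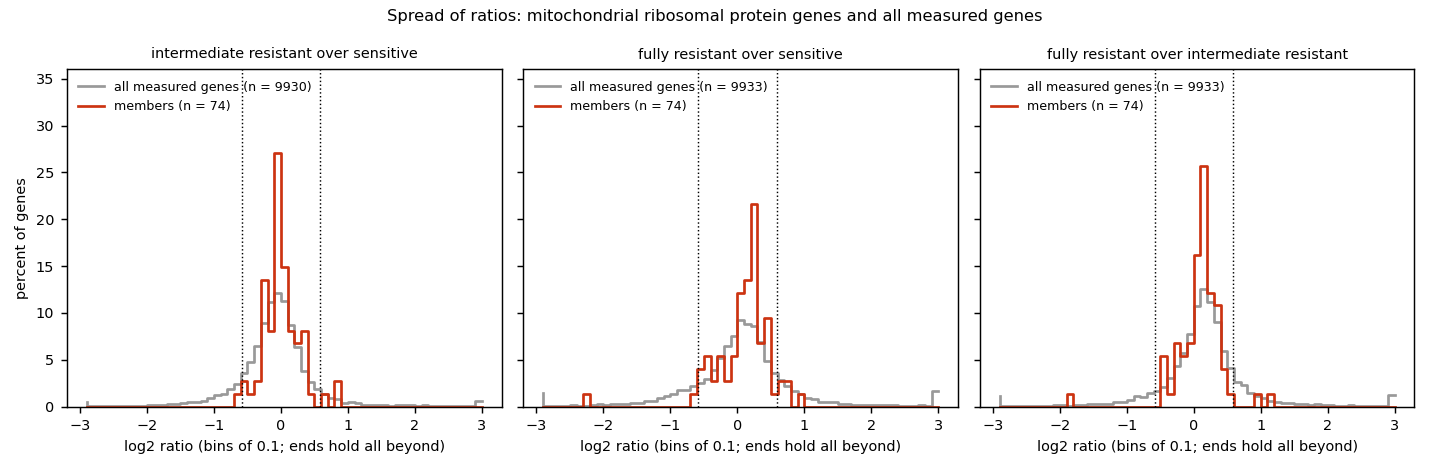
Distribution of log2 ratios in bins of 0.1 for the 74 measured members (red) and all measured genes (grey), as percent of genes, in the 3 comparisons; dotted lines mark 1.5-fold. The members form a narrower peak, with quartiles spanning 0.28, 0.36 and 0.28 against 0.47, 0.65 and 0.49 for all genes, and MRPS24 is the isolated bar on the left in both panels with fully resistant cells.

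Of the small-subunit proteins, MRPS24 differed most. It is the mitochondrial counterpart of bacterial S3, which lines the path by which the message enters the ribosome. Its level was 32.4 CPM (95% counting interval 31.3 to 33.6) in sensitive, 25.8 CPM (24.8 to 26.8) in intermediate resistant and 6.95 CPM (6.46 to 7.47) in fully resistant cells. Fully resistant cells thus stood apart from the other two libraries, 4.67-fold below sensitive cells (4.30 to 5.06) and 3.71-fold below intermediate resistant cells (3.42 to 4.03). In barcodes of 1 to 100 UMIs, which hold mainly free RNA, MRPS24 stood at 22.8, 18.7 and 6.59 CPM, from 72, 77 and 27 UMIs. The fully resistant library was thus lowest outside cells too, in RNA of the same cultures. The gene shares its strand with the readthrough transcript URGCP-MRPS24, listed at 0.0105 CPM in sensitive cells and at 0 UMIs in both resistant libraries, and what the overlap did to the count was not tested.

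MRPS6, the counterpart of bacterial S6, went the other way. It stood at 52.7 CPM in sensitive, 44.2 in intermediate resistant and 99.1 in fully resistant cells. The level in fully resistant cells was 1.88-fold that of sensitive cells (95% counting interval 1.82 to 1.94) and 2.24-fold that of intermediate resistant cells (2.16 to 2.32). SLC5A3, a transporter gene on the same strand that overlaps MRPS6, had 0 UMIs in all 3 libraries, and whether its reads went to MRPS6 was not tested. Outside cells MRPS6 stood at 64.5, 52.4 and 115 CPM.

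Other small-subunit members moved less. MRPS25, which has no bacterial homolog, stood at 69.1, 57.1 and 44.2 CPM, 1.57-fold lower in fully resistant than in sensitive cells (95% counting interval 1.51 to 1.63). MRPS27, a protein with RNA-binding repeats, stood at 54.6, 44.8 and 36.8 CPM, just short of 1.5-fold. Over the 3 libraries both were ordered as MRPS24 was. MRPS33 was highest in sensitive cells at 170, 123 and 121 CPM, and MRPS2 was lowest there at 92.0, 123 and 117 CPM. MRPS26 (138, 119 and 166 CPM) and MRPS31 (22.0, 18.9 and 25.8 CPM) were lowest in the intermediate resistant library. MRPS12, at the decoding centre, was likewise lowest there at 143, 128 and 161 CPM.

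The S18 name is carried by 3 genes. MRPS18C, the small-subunit form closest to bacterial S18, stood at 104, 122 and 145 CPM. MRPS18B, also of the small subunit, stood at 89.5, 75.01 and 79.3 CPM. MRPS18A, whose protein sits in the large subunit despite its name, stood at 38.3, 50.2 and 65.4 CPM, 1.71-fold higher in fully resistant than in sensitive cells (95% counting interval 1.64 to 1.78). MRPS18A and MRPS18C were thus ordered alike over the libraries, and MRPS18B was highest in sensitive cells. MRPS30, a second S-named protein of the large subunit, was level at 35.1, 33.2 and 33.9 CPM. MRPS36, now known as a component of the 2-oxoglutarate dehydrogenase complex and not of the ribosome, stood at 113, 123 and 125 CPM.

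Of the large-subunit proteins, MRPL17 and MRPL23 were higher in both resistant libraries than in sensitive cells. Both have bacterial homologs, and L23 borders the exit of the peptide tunnel. MRPL17 stood at 24.8, 45.6 and 39.5 CPM, 1.84-fold (95% counting interval 1.75 to 1.93) and 1.59-fold (1.52 to 1.68) the sensitive level. MRPL23 stood at 111, 196 and 171 CPM, 1.77-fold (1.73 to 1.81) and 1.54-fold (1.505 to 1.58). Both peaked in the intermediate resistant library. With TMM scaling the fully resistant log2 ratios were 0.58 for MRPL17 and 0.53 for MRPL23, in the same direction and under 1.5-fold. With the reduced total they were 0.62 and 0.57, which keeps MRPL17 past 1.5-fold and MRPL23 under it, and with the median of ratios 0.60 and 0.56.

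MRPL36, a small zinc-binding protein of the large subunit, was lowest in intermediate resistant cells, at 97.1, 78.0 and 147 CPM. The fully resistant level was 1.51-fold the sensitive level (95% counting interval 1.47 to 1.55) and 1.88-fold the intermediate resistant level (1.83 to 1.93); with TMM scaling the first log2 ratio was 0.50, with the reduced total 0.54 and with the median of ratios 0.53, all under 1.5-fold. MRPL53 was 1.54-fold (1.38 to 1.72) and 1.71-fold (1.53 to 1.90) the sensitive level. CCDC142, which overlaps MRPL53 on its strand, ran beside it at 6.11, 8.80 and 8.59 CPM, and reads of the pair may not be separable. MRPL9 (153, 148 and 214 CPM) and MRPL47 (209, 200 and 276 CPM) were highest in fully resistant cells, within 1.5-fold.

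MRPL40 and MRPL24 were lower in intermediate resistant than in sensitive cells, and MRPL12 was close to that limit. MRPL12, the mobile stalk protein that recruits translation factors, stood at 347, 231 and 231 CPM, 1.5-fold lower in both resistant libraries after rounding, just short of the limit before it. Its stalk partner MRPL10 stood at 61.2, 74.2 and 63.9 CPM, highest in the intermediate resistant library. MRPL40 stood at 139, 91.1 and 95.4 CPM and MRPL24 at 81.8, 54.0 and 58.0 CPM. These were 1.52-fold (95% counting interval 1.48 to 1.57) and 1.52-fold (1.46 to 1.57) lower in intermediate resistant than in sensitive cells. With each of the other scalings no member was called lower there. In fully resistant over sensitive cells, where none of these 3 was called (MRPL40 was 1.46-fold and MRPL24 1.41-fold lower), TMM scaling put all 3 past 1.5-fold lower, at log2 ratios of −0.68 for MRPL12, −0.64 for MRPL40 and −0.59 for MRPL24. MRPL45, which ties the ribosome to the inner membrane, was level at 61.6, 59.5 and 64.0 CPM.

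A further group was lowest in fully resistant cells, within 1.5-fold. MRPL55 stood at 217, 225 and 164 CPM, MRPL20 at 299, 320 and 242 CPM and MRPL18 at 159, 152 and 112 CPM. MRPL28 stood at 61.9, 80.7 and 77.3 CPM, lowest in sensitive cells.

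The balance of the subunits varied little beside the members themselves. UMIs of L-named members exceeded those of S-named members 2.05-fold in sensitive, 2.18-fold in intermediate resistant and 2.02-fold in fully resistant cells. Placing MRPS30 and MRPS18A with the large subunit and leaving MRPS36 out gave 2.21, 2.38 and 2.19. The intermediate resistant library was highest by either count. Its median log2 ratio to sensitive cells was 0.03 for L-named and −0.10 for S-named members. The 44 measured members with a bacterial homolog had medians of −0.01, 0.20 and 0.11 in the 3 comparisons, in the order intermediate resistant over sensitive, fully resistant over sensitive and fully over intermediate resistant. The 29 with none listed, among them MRPS18A and MRPS18B, had −0.07, 0.08 and 0.15.

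Each member was also set beside the genes next to it on its chromosome. For each member the median log2 ratio of up to 20 measured neighbours that are no members was taken, 10 on each side in the RefSeq gene order. MRPL17 and MRPL23, both on chromosome 11, had neighbours with medians of 0.90 and 0.93 in intermediate resistant over sensitive cells and 0.95 and 0.98 in fully resistant over sensitive cells. The neighbours of MRPL36 on chromosome 5 had 0.56 in fully resistant over sensitive and 0.71 over intermediate resistant cells. Those of MRPL12 on chromosome 17 had −0.53 and those of MRPL40 on chromosome 22 had −0.64 in intermediate resistant over sensitive cells, and those of MRPL24 on chromosome 1 had −0.29. Each of these 6 members thus differed in the direction of its neighbours. MRPS7, also on chromosome 17 but 1.22-fold higher in intermediate resistant than in sensitive cells, had neighbours at 0.54.

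Below 1.5-fold, some members also lay in the direction of their neighbours in fully resistant over sensitive cells. Others had neighbours that differed little or the other way. The members named here were chosen after their values were seen. MRPL18, MRPL55 and MRPL20, at −0.50, −0.40 and −0.31, had neighbours at −0.40, −0.44 and −0.46, and MRPL41, at 0.46, had neighbours at 0.40. MRPS17 and MRPL1, at −0.29 and −0.28, had neighbours at 0.29 and 0.19, and MRPS27, at −0.57, had neighbours at 0.06. MRPS33, at −0.49, and MRPL9, at 0.49, had neighbours at −0.05 and 0.02.

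The other members called between fully resistant and sensitive cells had neighbours near 0 or on the other side. In fully resistant over sensitive cells the neighbours of MRPS24 had a median of 0.08, those of MRPS25 0.08, those of MRPS6 0.11, those of MRPL53 0.10 and those of MRPS18A −0.16. Over all 74 members Pearson's r between a member's ratio and its neighbours' median was 0.62, 0.42 and 0.41 in the 3 comparisons, and Spearman's rho 0.26, 0.42 and 0.37. Over all measured genes with a place the values were 0.31, 0.29 and 0.24 (Pearson) and 0.34, 0.36 and 0.30 (Spearman). These points share libraries, and neighbouring genes share neighbours. DNA copy number was not measured here, and the part of it in these levels was not tested.

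**Figure D3:**
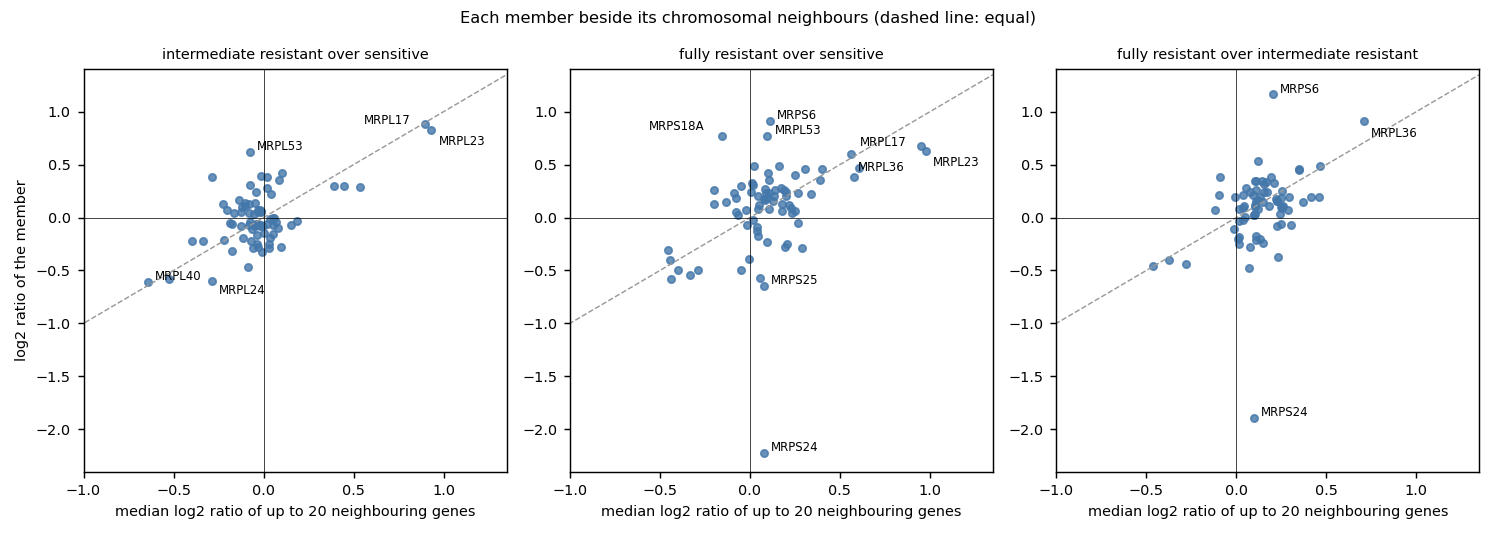
Log2 ratio of each of the 74 measured members against the median log2 ratio of up to 20 neighbouring genes, in the 3 comparisons, with members past 1.5-fold named; the dashed line marks equal values. MRPL17 and MRPL23 lie close to the line at neighbour medians from 0.90 to 0.98, while MRPS24, at −2.22 and −1.89, has neighbours at 0.08 and 0.10.

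Members with and without each promoter word overlapped in their ratios. In fully resistant over sensitive cells the 26 members with the ETS word had a median log2 ratio of 0.19 and the 39 without it 0.12. For the YY1 word the medians were 0.19 with it and 0.16 without it, over 12 and 53 members. In the same comparison the 6 members with an E-box had 0.34 and the other 59 had 0.13, and MRPL36, shown above with its E-box, is one of the 6. The 6 members with the NRF1 word had 0.25 there and the other 59 had 0.16. In intermediate resistant over sensitive cells the medians with and without the E-box were 0.07 and −0.06, and those with and without the NRF1 word 0.05 and −0.06. Whether any of these groups differ was not tested. MYCN itself stood at 1242, 413 and 446 CPM.

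UMIs of the members were found in every cell of each library, and barcodes of 1 to 100 UMIs, which hold mainly free RNA, carried them at 1.00%, 1.03% and 1.09% of their UMIs, at or above the share in cells. A UMI in a cell is therefore not by itself a sign of expression there. After thinning every cell to 5000 UMIs, a cell held a mean of 46.9, 47.6 and 50.9 member UMIs, and 0 cells held none. The members' share of a cell's UMIs had a mean of 0.938%, 0.951% and 1.02%, with an SD over cells of 0.203, 0.240 and 0.228 percentage points. The central 90% of cells ran from 0.62% to 1.27% in the sensitive, from 0.56% to 1.34% in the intermediate resistant and from 0.64% to 1.4% in the fully resistant library, so the libraries overlapped over most of their range. The variance between cells was 2.22, 3.07 and 2.57 times what binomial sampling of 5000 UMIs gives. Cells of a library are not replicates of a state, and these spreads describe the libraries.

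**Figure D4:**
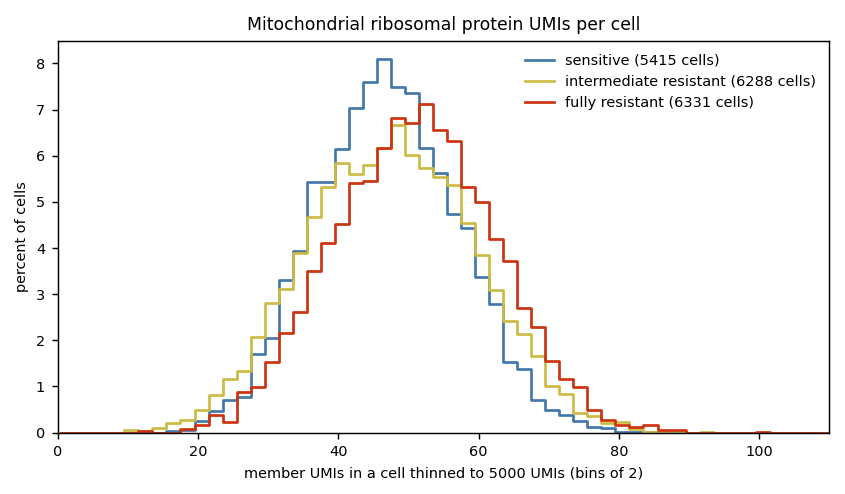
Percent of cells by number of mitochondrial ribosomal protein UMIs in a cell thinned to 5000 UMIs (bins of 2), for 5415 sensitive, 6288 intermediate resistant and 6331 fully resistant cells. The 3 curves overlap widely, with means of 46.9, 47.6 and 50.9 UMIs, and the fully resistant curve lies to the right.

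Genes that work with the mitochondrial ribosome were read from lists written from general knowledge. Mitoribosome proteins with other names (9 measured) had medians of −0.05, 0.19 and 0.24 in the 3 comparisons. ICT1, a peptide-releasing enzyme built into the large subunit, stood at 38.6, 48.3 and 63.8 CPM. It was 1 of 9 higher (11.1%) in fully resistant than in sensitive cells, beside 15.1% of all genes. AURKAIP1, of the small subunit, stood at 789, 746 and 597 CPM, and OXA1L, which inserts new proteins into the inner membrane, at 65.9, 62.4 and 47.5 CPM. Both were lowest in fully resistant cells.

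Of 14 translation factors, 2 were higher (14.3%) and 1 lower (7.14%) in fully resistant than in sensitive cells, beside 15.1% and 14.9% of all genes. TSFM, which recharges the elongation factor TUFM, stood at 46.6, 66.9 and 76.4 CPM, and C12orf65, a ribosome rescue factor, at 24.96, 32.2 and 39.7 CPM. RMND1, which anchors mitochondrial ribosomes at the inner membrane, was lower at 18.0, 15.2 and 8.44 CPM. The list's medians were −0.07, −0.14 and 0.11. Of 24 assembly and rRNA modification factors, 2 were higher (8.33%) and 3 lower (12.5%) in the same comparison, each under the share over all genes. DHX30, an RNA helicase of assembly, stood at 57.6, 49.6 and 26.8 CPM, TFB1M, which methylates the small rRNA, at 11.9, 11 and 7.11 CPM, and MPV17L2, an assembly factor of the large subunit, at 9.48, 11.6 and 16.8 CPM. The first pair was lowest in fully resistant cells and MPV17L2 was highest there.

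Of 18 genes for mitochondrial transcription and RNA handling, 1 was lower (5.56%) in intermediate resistant than in sensitive cells, beside 12.2% of all genes. This was MTPAP, the mitochondrial poly(A) polymerase, at 17.3, 7.44 and 7.76 CPM. FASTKD3 (10.99, 10.7 and 18.6 CPM) and FASTKD5 (6.51, 5.25 and 8.87 CPM), 2 RNA-processing proteins, were higher in fully than in intermediate resistant cells. These are 11.1% of the 18 genes, beside 13.7% of all genes. Of 20 genes for charging mitochondrial tRNAs, GATC, a subunit of the enzyme that makes glutaminyl-tRNA, stood at 6.71, 14.9 and 12.4 CPM, and KARS, which serves cytosol and mitochondria, at 108, 67.1 and 54.0 CPM. NARS2 stood at 34.1, 29.2 and 45.0 CPM.

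Of the 13 mitochondrially encoded mRNAs, which this ribosome translates, 4 were higher (30.8%) and 3 lower (23.1%) in fully resistant than in sensitive cells, beside 15.1% and 14.9% of all genes, with a median of 0.26. MT-ND3, a complex I subunit, stood at 1874, 2915 and 3462 CPM. MT-ND6, the complex I subunit encoded on the other strand, stood at 264, 239 and 135 CPM, and MT-ATP8, whose message is shared with MT-ATP6, at 60.8, 46.0 and 13.7 CPM. MT-ND3 was highest in fully resistant cells and MT-ND6 and MT-ATP8 were lowest. Tags lie near the 3′ end of a message, so the MT-ATP8 count need not be the level of the shared message. How its tags were divided between MT-ATP8 and MT-ATP6 was not tested. Nuclear respiratory chain genes (76 measured) had medians of −0.06, −0.00 and 0.05, and cytosolic ribosomal protein genes (81 measured) 0.13, −0.08 and −0.23. The members' medians were −0.04, 0.17 and 0.11. A change of scaling shifts all lists by nearly the same amount, so the signs of the smaller medians can depend on it. The members' 0.17 stayed positive with the reduced total, TMM and the median of ratios, at 0.112, 0.0734 and 0.0983. The members' medians in the other comparisons changed sign with some or all of these. Whether the lists differ was not tested.

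**Figure D5:**
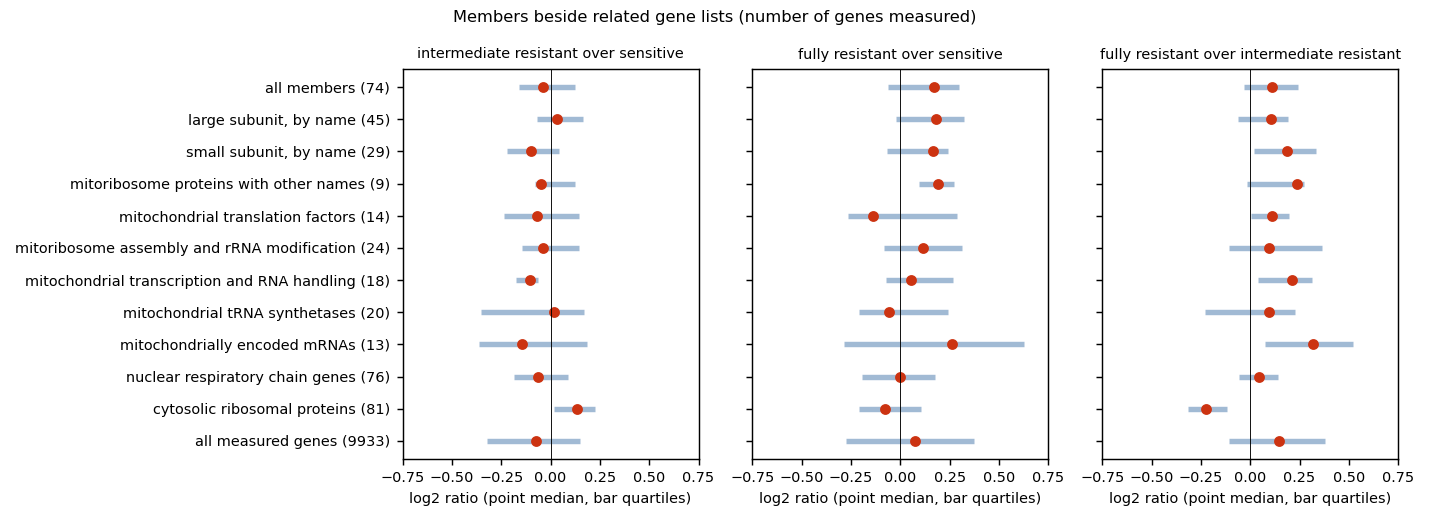
Median (point) and quartiles (bar) of the log2 ratio for the members, their subunits and related gene lists, with the number of genes measured, in the 3 comparisons. In fully over intermediate resistant cells the members lie at 0.11 beside all genes at 0.14, and the cytosolic ribosomal protein genes at −0.23.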

How the data were processed

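Groups were taken from the response named in the labels. The deposited values are UMI counts per gene and barcode, not normalized and not filtered for cells, made with bcl2fastq and Cell Ranger on hg19 per the submitters' processing notes, versions not given; the kit was 10x Single Cell 3′ v2 per the labels. Cells were barcodes with at least 5000 UMIs, 500 genes and at most 20% mitochondrially encoded UMIs; the last limit removed 0, 4 and 2 barcodes in the order sensitive, intermediate resistant, fully resistant. Doublets were kept, and leaving out cells above the doubled median UMI count was an alternative. UMIs were summed over cells and divided by the library total (CPM). Levels carry exact Poisson and ratios exact conditional Poisson 95% intervals, and 0 UMIs allows 3 UMIs; UMIs cover counting error only. No test was run, and 0 per-sample columns were left unused. Alternatives were TMM (edgeR 4.0.16), median-of-ratios and reduced-total scaling, other cell, level and ratio limits. The interval code was tested on simulated data. Python 3.11.15, numpy 2.4.6, pandas 2.3.3, scipy 1.17.1, matplotlib 3.10.9 and R 4.3.3 were used.

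Overlaps and pseudogene names came from GENCODE 29, promoters, chromosomes and gene order from RefSeq GRCh38.p14 (74 of 74 measured members placed, as were 9656 measured genes). Both are on another build than the files and give gene relations only.

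Named members were, in each comparison, the 6 highest and 6 lowest ratios among those of at least 20 CPM in the higher library, the 6 highest and 3 lowest levels, and stalk, anchor, MRPS12, MRPS18, MRPS30 and MRPS36 genes; other lists gave up to 3 genes each with the greatest ratio. MRPL4 was chosen after its values were seen. 1 cell type marker is not reported here. The members, lists and rules were chosen with earlier results of these data known.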

Additional observations from a re-analysis of the deposited data

How the results depend on the processing

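With 1 library per group, differences between cultures could not be measured, and depth limits only the low members. No paired analysis was possible because each group has 1 library. Counts were held to be kept within 1.5 times, sums within their counting interval and medians within the typical counting error of 1 member (0.0386 to 0.0403 on the log2 scale). By these limits 73 values were kept, 39 moved and 8 reversed; kept counts include higher members in fully resistant over sensitive at 4 with the reduced total and with the median of ratios. The members without a same-strand overlap, and the library of highest level under each scaling, were chosen as alternatives after the data were seen. MRPS21 and MRPL45, whose overlaps could not be read, were kept among the members without an overlap. The settings without mitochondrially encoded and cytosolic ribosomal protein genes in the total (the reduced total), with TMM and with the median of ratios are given in that order as the 3 scalings.

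For intermediate resistant over sensitive, lower members went from 2 to 0, 0 and 0 with the 3 scalings, 1 with every cell weighted alike and 0 at a ratio of 2. Higher members went from 3 to 0 at a ratio of 2. Of all genes, 11.35%, 10.8% and 10.92% were lower with the 3 scalings and 12.01% with every cell weighted alike. At a ratio of 2, 4.904% of all genes were lower and 3.031% were higher. The median reversed from −0.04 to 0.0226, 0.0091 and 0.0028 with the 3 scalings. The summed log2 ratio of 0.01 became 0.0732, 0.0605 and 0.0543 with the 3 scalings, 0.0076 without cells above the doubled median, 0.0180 with every cell weighted alike and 0.0234 without overlapped members.

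For fully resistant over sensitive, higher members went from 6 to 3 with TMM and 0 at a ratio of 2. Lower members went from 2 to 5, 8 and 5 with the 3 scalings, 4 with no filter on low values, 1 at a ratio of 2 (MRPS24) and 1 without overlapped members. Of all genes, 12.2% were higher with TMM and 6.755% at a ratio of 2. Lower were 17.4%, 17.45% and 16.8% with the 3 scalings, 20.8% with no filter and 7.47% at a ratio of 2. The median of 0.17 became 0.112, 0.0734 and 0.0983 with the 3 scalings. The summed log2 ratio of 0.12 became 0.0685, 0.0259 and 0.0508 with the 3 scalings, 0.11 without cells above the doubled median, 0.11 with every cell weighted alike and 0.14 without overlapped members.

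For fully over intermediate resistant, higher members went from 2 to 1 at a ratio of 2 and to 1 without overlapped members. Lower members went from 1 to 2 without mitochondrially encoded and cytosolic ribosomal protein genes, 3 with TMM, 3 with no filter and 0 without overlapped members. Of all genes, 5.67% were higher at a ratio of 2. Lower were 11.9% with the reduced total, 11.65% with TMM and 17.6% with no filter. The median of 0.11 became −0.0023 and −0.0305 with the first 2 scalings and 0.0006 with the median of ratios. The summed log2 ratio of 0.11 became −0.0047, −0.0346 and −0.0035 with the 3 scalings, 0.10 without cells above the doubled median, 0.10 with every cell weighted alike and 0.11 without overlapped members. The changes with the 3 scalings, the reversals among them, follow the totals that the scalings divide by. The cause of the other changes was not tested.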

Other observations

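Within each library, cells were ordered by their share of cytosolic ribosomal protein UMIs and cut into 3 equal parts. The mitochondrial ribosomal protein share of the remaining UMIs was 1.56%, 1.49% and 1.39% from the lowest to the highest part in sensitive, 1.68%, 1.58% and 1.41% in intermediate resistant and 1.61%, 1.55% and 1.43% in fully resistant cells. Cells with more cytosolic ribosomal protein messages thus had a lower share of mitochondrial ones in all 3 libraries. Ordered by their share of mitochondrially encoded UMIs, cells held 1.04%, 1.00% and 0.943% of the remaining UMIs in sensitive and 1.15%, 1.08% and 1.04% in fully resistant cells. In intermediate resistant cells the middle part was highest, at 0.994%, 1.03% and 0.976%. Ordered by MYCN UMIs after thinning, the shares were 0.928%, 0.942% and 0.955% in sensitive, 0.956%, 0.955% and 0.934% in intermediate resistant and 1.01%, 1.03% and 1.03% in fully resistant cells, so the direction was not the same in the 3 libraries. The median MYCN count of the parts was 2, 5 and 10 UMIs in sensitive cells and 0, 2 and 4 UMIs in each resistant library. Cells with equal counts were ordered at random, so adjoining parts can hold cells of the same count. All these shares are descriptions of cells within 1 library each.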
